A study of Mus musculus with 22 samples.

Results

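The 43 genes described here, listed by their function, are factors that build ribosomes in the nucleolus, together with 2 metabolic enzymes, Srm and Cad. The list was drawn up with earlier results of these data in view. A listed gene had to reach 1 FPKM (a read count divided by gene length and library depth) in at least 3 libraries, and all 43 did, of 43430 genes in the tables and 12274 that passed the same minimum. The lowest of the 43 by its third-highest library was Nat10 at 2.98 FPKM, in a knockout library. Over all control libraries Nat10 averaged 0.988 FPKM and Rrp1b 1.004 FPKM, close to the minimum. Nat10 was under 1 FPKM in 6 libraries, Rrp1b in 3, and Grwd1 and Cad in 1 each. By role the list held 5 genes of RNA polymerase I, 8 of the small nucleolar ribonucleoproteins (snoRNPs), 9 of the small ribosomal subunit pathway, 15 of the large subunit pathway, 4 abundant nucleolar proteins with several functions and 2 metabolic enzymes.

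The values come from bulk RNA of thymocytes sorted as CD4+CD8+ (double-positive, the stage before CD4 and CD8 lineages separate), from mice whose E2a alleles were floxed (genotype E2aF/F). E2a is the gene Tcf3, whose products are E proteins that direct lymphocyte development. There were 22 libraries in 7 groups. At 4 weeks of age there were 3 Vav knockouts (VavCre E2aF/F) with 3 controls (E2aF/F), and 3 Lck knockouts (LckCre E2aF/F) with 3 controls of their own (E2aF/F). At 8 weeks there were 4 transplanted Vav knockouts, 3 untransplanted Vav knockouts (both VavCre E2aF/F) and 3 controls (E2aF/F). No Cre is named for the controls. Vav-driven Cre acts in all blood lineages, Lck-driven Cre in developing T cells. The transplanted mice had been sublethally irradiated and given wild-type bone marrow cells as competitors 4 weeks earlier, and the labels name CD45.1 as a sorting marker without saying which of their cells carried it. Animals are not named in the labels, and the p-values below therefore rest on the spread among libraries, part of which may be technical.

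Ribosome production begins when RNA polymerase I transcribes the ribosomal RNA precursor. Box C/D and H/ACA snoRNPs then modify that RNA, and separate sets of assembly factors cut, fold and pack it into the small and the large subunit. Many of these genes are known targets of the transcription factor Myc, which drives cell growth. Most double-positive thymocytes are small cells that have stopped dividing, after a phase of rapid proliferation that begins before that stage.

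Myc binds the sequence CACGTG, the canonical E-box, and the promoters that hold it are shown here because Myc moved with the 43 genes in these libraries. RefSeq promoter windows (bases around the start of the gene, GRCm38.p6) were matched for 36 of the 43 genes. No window was matched for Bop1, Fbl, Gnl2, Npm1, Rrp12, Rrs1 and Srm. CACGTG, which reads the same on both strands, lay in 7 of the 36 (19.4%), against 7.24% of 27025 promoters of the same length. The 7 sites follow, each in 30 bases read 5′ to 3′ along the strand of the gene, with the motif in capitals.
Grwd1 (chr7:45830740-45830769, minus strand): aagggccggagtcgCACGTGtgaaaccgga
Mybbp1a (chr11:72441347-72441376, plus strand): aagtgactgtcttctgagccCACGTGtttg
Nop2 (chr6:125131811-125131840, plus strand): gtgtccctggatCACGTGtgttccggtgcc
Pes1 (chr11:3963965-3963994, plus strand): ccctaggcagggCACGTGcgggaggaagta
Tsr1 (chr11:74898092-74898121, plus strand): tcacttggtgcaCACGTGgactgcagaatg
Utp20 (chr10:88826765-88826794, minus strand): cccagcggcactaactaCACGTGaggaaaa
Wdr43 (chr17:71616220-71616249, plus strand): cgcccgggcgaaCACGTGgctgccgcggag
CANNTG, the wider family that E proteins bind and that includes the other motifs named here, lay in 61.1% of the 36 promoters and in 72.1% of all. A form that E proteins favour, CAGCTG, lay in 16.7% of the 36 and in 16.1% of all. Another favoured form, CAGGTG read on either strand, lay in 2.78% of the 36 and in 20.03% of all. These matches say that the letters are present in the window and nothing of binding.

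Tcf3 was low in every knockout library, as their labels say. It had 1.36, 1.39 and 1.15 FPKM in the Vav knockouts at 4 weeks, against 7.47, 6.39 and 6.73 FPKM in their controls. In the Lck table it had 1.33, 1.198 and 1.199 FPKM in knockouts, against 7.505, 8.22 and 6.98 FPKM in controls. The low values of the tables implied between 5.469 and 37.362 M reads per library, the lowest in Lck knockout replicate 2. At 4 weeks the Vav libraries, knockouts and controls, were at 31.1 to 37.4 M and the Lck libraries at 5.469 to 16.3 M. The part of this depth in the calls was not tested. At 8 weeks 1 library stood apart from its group, transplanted Vav knockout replicate 3. Its Tcf3 level was low (the 4 transplanted libraries had 1.22, 1.31, 2.32 and 1.21 FPKM), as in the other knockouts. Its median over 30 cell cycle genes was -1.55 relative to controls on the log2(FPKM + 1) scale, against -0.075, 0.058 and 0.28 in replicates 1, 2 and 4. Mki67, a marker of cycling cells, had 66.4, 76.9, 25.6 and 109 FPKM in transplanted replicates 1 to 4, and Igkc, an immunoglobulin gene, had 5.67, 6.79, 68.4 and 2.11 FPKM. The macrophage gene Lyz2 had 2.2005, 4.31, 16.1 and 0.293 FPKM in the same 4 libraries. In the controls of that table Igkc had 16.2, 1.43 and 22.2 FPKM and Lyz2 1.57, 0.146 and 1.16 FPKM. The B cell factors Pax5 and Ebf1 and the granulocyte gene Elane had no reads in replicate 3. Its median over the double-positive marker genes, -0.64, was the nearest to controls, against -2.01, -1.45 and -1.58 in replicates 1, 2 and 4. The cause was not tested. The 8-week counts of calls and the medians of the gene lists are given with and without this library.

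**Figure D1:**
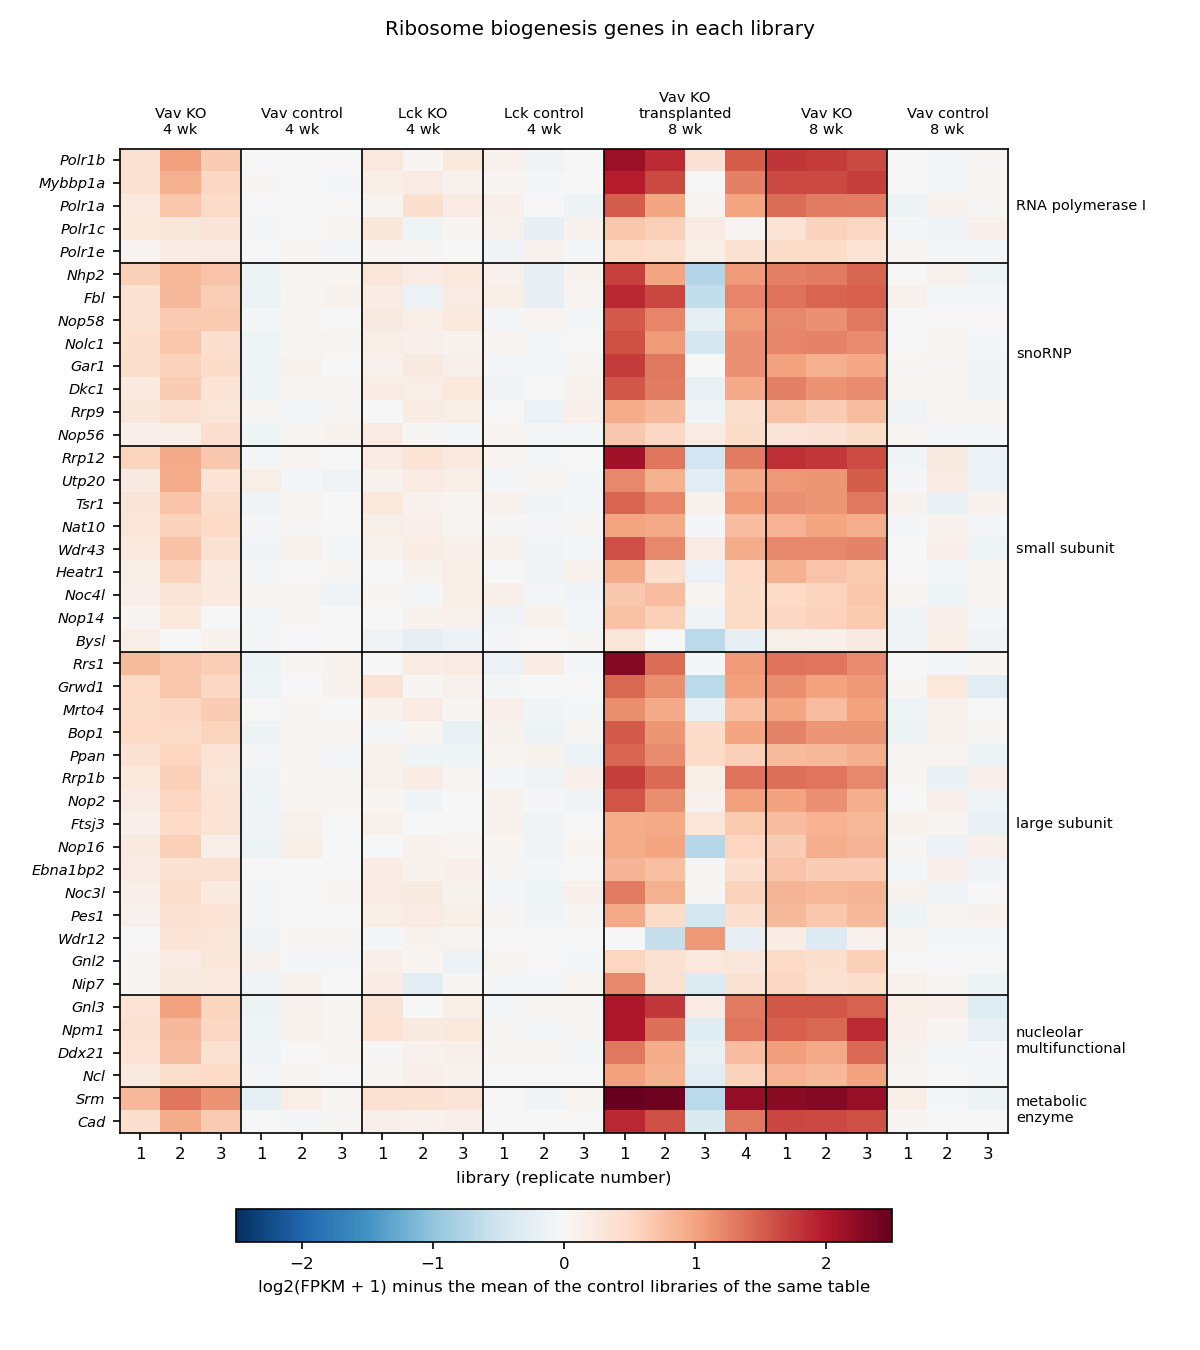
Each row is 1 of the 43 genes, grouped by role, and each column 1 of the 22 libraries; the colour is log2(FPKM + 1) minus the mean of the control libraries of the same table. Vav knockout columns are red at 4 weeks and darker at 8 weeks, Lck knockout columns stay near 0, and transplanted replicate 3 is pale or blue where the other 3 transplanted libraries are red, Wdr12 excepted.

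In Vav knockout thymocytes at 4 weeks the genes of ribosome production were higher than in controls. Of the 43, 24 rose and 0 fell, against 7.63% of all 10828 tested genes that rose and 6.08% that fell. Every 1 of the 43 estimates was above 0 (48.1% of all tested genes were), with a median log2 fold change of 0.45 (all tested genes -0.0083). The rises spanned all roles: 4 of 5 RNA polymerase I genes, 6 of 8 snoRNP genes, 3 of 9 small subunit genes, 6 of 15 large subunit genes, 3 of 4 nucleolar proteins and both enzymes. The largest was that of Srm, 1.09 (SE 0.155, adjusted p = 0.00778), and the smallest estimate that of Bysl, 0.085 (SE 0.0618, adjusted p = 0.415). Calls use limma with Benjamini-Hochberg adjustment over all tested genes and an adjusted p under 0.05. Nat10 was tested only because it passed the minimum in the knockouts, with every control under 1 FPKM, so its rise follows in part from the filter; the other 23 did not depend on it. With libraries scaled to the same FPKM sum 19 members rose and 0 fell, while the calls over all genes became 606 higher and 1001 lower, against 826 and 658. Leaving out control replicate 1, 2 or 3 left 10, 10 and 10 calls, and leaving out knockout replicate 3 left 12.

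Other programmes differed in the same libraries. Of 8 double-positive marker genes 4 fell in Vav knockouts, and their summed level was 2960.0 to 3536 FPKM in knockouts, against 4154 to 4304 FPKM in controls. Of 10 early double-negative genes 4 could be tested, of which Il7r passed the minimum only through the knockouts; the other 3, Notch1, Dtx1 and Il2ra (2.95), rose, while Bcl11a and Hhex, 2 of the 10, were at 0 in all these knockouts and Hhex in all controls. Their sum was 69.04 to 111 FPKM in knockouts, against 20.1 to 20.97 FPKM in controls. Of 9 markers of mature T cells that carry CD4 or CD8 alone, 4 passed the minimum only through the knockouts (Klf2, S1pr1, Runx3 and Il7r, which is on both lists); of the other 5, 4 rose, and the sum of all 9 was 79.4 to 93.4 FPKM in knockouts, against 53.96 to 57.8 FPKM in controls. Of the 30 cell cycle genes 0 passed in either direction, with a median of 0.067 and sums of 1359.5 to 1614 FPKM in knockouts and 1305 to 1529 FPKM in controls. The part of these differences in the ribosome biogenesis result was not tested, and in bulk RNA a different mix of cells and a different amount of RNA per cell cannot be told apart.

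In Lck knockout thymocytes, which had lost Tcf3 to a similar level, 0 of the 43 genes rose and 0 fell by limma's adjusted p, against 0.201% and 0.804% of 10946 tested genes. Scaled to the same sum, the calls over all genes were 6 higher and 88 lower, against 22 and 88. At an unadjusted p under 0.05, 14 members were higher and 1 lower, against 7.79% of all genes higher and 5.94% lower. The estimates were small and mostly positive, 38 of 43 above 0 (55.8% of all genes), with a median of 0.12 (all genes 0.016) and a range of -0.14 (Bysl) to 0.36 (Srm). Myc gave 0.35 (SE 0.142, adjusted p = 0.351) in this table, with 1.76, 1.26 and 1.196 FPKM in the Lck knockouts and 1.16, 0.794 and 0.692 FPKM in their controls. Here 0 of 30 cell cycle genes passed (median 0.18), 1 of 8 double-positive genes fell and 0 of 3 testable early double-negative genes passed.

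Whether the Vav and Lck effects differed was tested as an interaction over the 12 libraries of both 4-week tables. The Vav effect was the larger in all 43 estimates (median difference 0.32, all genes -0.020). Of 10541 tested genes 1.65% passed with a difference above 0 and 1.65% with one below 0. Of the 43, 3 members passed. They were Rrs1, 0.57 (SE 0.136, adjusted p = 0.0485), Bop1, 0.57 (SE 0.112, adjusted p = 0.0224), and Mrto4, 0.43 (SE 0.0959, adjusted p = 0.0388), all large subunit factors. Srm had the largest estimate, 0.73 (SE 0.177, adjusted p = 0.0529), and did not pass. The same test for Myc gave 1.15 (SE 0.238, adjusted p = 0.0262). Without Vav knockout replicate 1 there were 10 calls, without Vav knockout replicate 3 there were 0, and 1 was left without any 1 of the 3 Vav controls, without Lck control replicate 1 or 3, or without Lck knockout replicate 3. Without Lck control replicate 2 or Lck knockout replicate 2 the count was 2.

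At 8 weeks the Vav knockouts were further from their controls than at 4 weeks. The median log2 fold change of the 43 genes was 1.02 (all tested genes -0.0049) and 42 estimates were above 0. With all 10 libraries of the table in the fit 10 of the 43 rose and 0 fell, against 4.65% and 4.45% of 11632 genes. Without transplanted replicate 3, whose distance from its group enters the shared estimate of spread, 39 rose and 0 fell, against 16.4% and 14% of all genes. The fold changes are the same in both fits, since that library is in neither group. The 10 were Polr1b (1.73), Mybbp1a (1.68), Gnl3 (1.52), Polr1a (1.33), Rrp1b (1.31), Wdr43 (1.21), Tsr1 (1.19), Bop1 (1.15), Ftsj3 (0.82) and Gnl2 (0.50). Rrp1b had 0.874, 0.642 and 1.02 FPKM in the 3 controls, and Nat10, among the 39, had 1.01, 1.18 and 0.976 FPKM. Both passed the minimum only through knockout libraries, so their rises follow in part from the filter. The 4 that did not pass in the fit of 9 libraries were Polr1c (0.48), Nip7 (0.44), Bysl (0.17) and Wdr12 (-0.011). In the fit of 10 libraries, leaving out any 1 of the 3 controls or the 3 untransplanted knockouts left 0 calls.

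Transplanted Vav knockouts were also above controls, with 1 exception among 4 libraries. With all 4 libraries 5 of the 43 genes rose and 0 fell, against 4.59% and 4.6% of 11632 genes, with a median of 0.73 (all genes -0.0063). The 5 were Polr1b (1.47), Bop1 (1.02), Ppan (0.93), Ftsj3 (0.71) and Nop56 (0.47). Without replicate 3, 40 rose and 0 fell, against 18.1% and 14.7%, and the median was 1.08 (all genes 0.011). The 40 include Rrp1b and Nat10, which passed the minimum in this table only through knockout libraries. Leaving out any 1 of the controls left 0 calls, and leaving out transplanted replicate 1, 2 or 4 left 2, 1 and 3. The per-library medians of the 43 genes were 1.43, 0.99, -0.056 and 0.92 in transplanted replicates 1 to 4 relative to the control mean. The untransplanted knockouts had 1.01, 0.98 and 1.01. In replicate 3 the median lay near 0 while the genes went both ways: 14 of the 43 were above every control of the table, 20 below every control and 9 within their range. The same counts were not taken over all genes, so they do not set the 43 apart.

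By adjusted p, transplanted and untransplanted Vav knockouts were not distinguished by any of the 43 genes. Limma called 0 of 43 in either direction, against 0% and 0% of 11632 genes, with and without replicate 3. At an unadjusted p under 0.05 there were also 0 and 0, against 3.8% and 2.05% of all genes. With replicate 3 the median was -0.25 and the estimates ran from -0.67 to 0.095; without it the median was 0.027 and they ran from -0.25 (Wdr12) to 0.45 (Gar1). A p that misses the threshold does not show that the groups were alike. Both comparisons of this table with controls share the 3 control libraries, so their values for the same gene are not independent.

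At 8 weeks the marker lists moved as well. The double-positive genes summed to 1127 to 3158 FPKM in transplanted, 1886 to 2212 FPKM in untransplanted knockouts and 4157 to 4523 FPKM in controls. The early double-negative genes summed to 74.5 to 297 FPKM in transplanted, 81.9 to 126 FPKM in untransplanted knockouts and 13.7 to 16.3 FPKM in controls, with Bcl11a and Hhex at 0 in all transplanted libraries. The B cell genes summed to 111 to 165, 100.1 to 141 and 186 to 243 FPKM, the macrophage and granulocyte genes to 4.27 to 28.04, 4.78 to 10.9 and 2.102 to 5.69 FPKM and the erythroid genes to 29.1 to 72.7, 3.52 to 16.7 and 14.2 to 31.8 FPKM in the same 3 groups. The mature T cell markers summed to 84.5 to 221, 62.6 to 98.7 and 77.3 to 82.3 FPKM, the dendritic cell genes to 3.04 to 5.24, 6.39 to 9.34 and 2.42 to 2.601 FPKM and the thymic stroma genes to 11.5 to 13.6, 11.4 to 14.96 and 8.58 to 9.14 FPKM, in the same order. In transplanted replicate 2, Il7r, on both the mature and early lists, had 117 FPKM and Il2ra 118 FPKM. The mature markers in transplanted knockouts gave estimates from -1.59 to 3.36, and 0 passed with all libraries. Of the 30 cell cycle genes 0 passed in either knockout group with all libraries. Without transplanted replicate 3, 12 rose and 4 fell in transplanted knockouts, against 18.1% and 14.7% of all genes. In untransplanted knockouts 11 rose and 2 fell in that fit, against 16.4% and 14%. The sums of the cell cycle genes were 376 to 1553, 1414 to 1472 and 1159 to 1263 FPKM. The B cell factors Pax5 and Ebf1 were at 0 in all knockout libraries of this table, and the granulocyte gene Elane likewise. The part of these lists in the result was not tested.

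The change with age was tested as the Vav effect at 8 weeks minus that at 4 weeks, over 12 libraries that do not include the transplanted mice. Of the 43 genes 31 had a larger effect at 8 weeks and 0 a smaller one, against 8.87% and 9.37% of 10489 genes. Larger and smaller go by the sign of the difference, so a deeper fall at 8 weeks counts as smaller. Scaled to the same sum, 25 passed, and the calls over all genes were 588 larger and 1234 smaller, against 930 and 983. The median difference was 0.57 (all genes -0.017), and 42 estimates were above 0. The largest were Srm, 1.14 (SE 0.192, adjusted p = 0.00443), Mybbp1a, 1.08 (SE 0.149, adjusted p = 0.00223), and Polr1b, 1.04 (SE 0.185, adjusted p = 0.00548). All 4 nucleolar proteins, 7 of 8 snoRNP genes, both enzymes, 10 of 15 large subunit genes, 5 of 9 small subunit genes and 3 of 5 RNA polymerase I genes passed. The 31 include Nat10 and Rrp1b, which passed the minimum only through knockouts, Nat10 at both ages and Rrp1b at 8 weeks. Their differences follow in part from the filter. Wdr12 had the only estimate below 0, -0.23 (SE 0.184, adjusted p = 0.409). In this comparison 10 of 30 cell cycle genes also passed with a difference above 0, and 6 of 8 double-positive genes with one below 0. The double-positive median was -0.49 at 4 weeks and -1.22 at 8 weeks, so these genes fell further at 8 weeks.

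**Figure D2:**
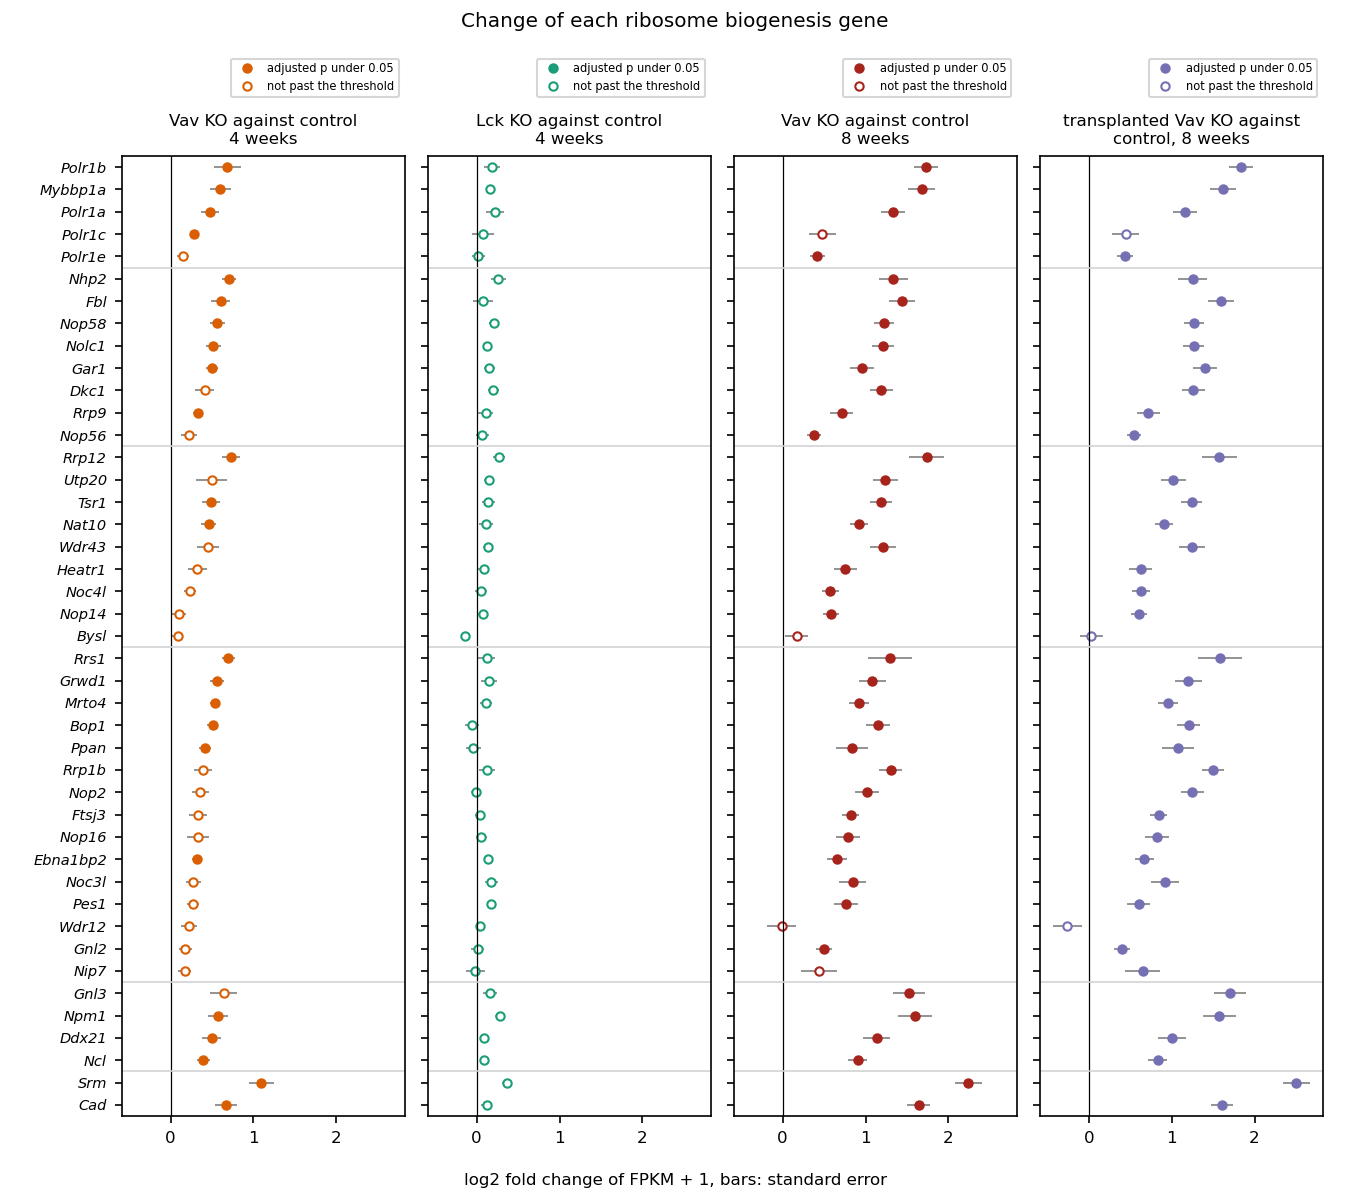
Points are log2 fold changes of FPKM + 1 for the 43 genes, ordered by role and by their change at 4 weeks, with standard errors as bars; filled points passed an adjusted p under 0.05. The 4-week panels use the 6 libraries of each table and the 8-week panels the 9 libraries without transplanted replicate 3. Nearly all points lie right of 0 in the 3 Vav panels, from -0.26 for Wdr12 to 2.5 for Srm in transplanted knockouts, while the Lck points lie between -0.14 and 0.36.

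RNA polymerase I genes carried some of the clearest differences. Polr1b (ENSMUSG00000027395, chromosome 2, 129100995 to 129126594, plus strand) encodes the second-largest subunit of the enzyme. It had 2.699, 4.82 and 3.41 FPKM in Vav knockouts at 4 weeks, against 1.84, 1.87 and 1.803 FPKM in controls, a log2 fold change of 0.68 (SE 0.159, adjusted p = 0.0364). In the 8-week table it had 10.02, 8.19, 2.24 and 6.17 FPKM in transplanted knockouts, 7.68, 7.402 and 6.92 FPKM in untransplanted knockouts and 1.54, 1.43 and 1.58 FPKM in controls. All knockout libraries of both tables exceeded all controls of the same table, replicate 3 of the transplanted group by the least. It gave 1.73 (SE 0.373, adjusted p = 0.0239) in untransplanted and 1.47 (SE 0.349, adjusted p = 0.0317) in transplanted knockouts, and was 1 of 2 members called in 3 of the 5 group comparisons, with Bop1. In Lck knockouts it had 2.12, 1.66 and 2.07 FPKM, against 1.77, 1.44 and 1.56 FPKM in controls, and the groups overlapped.

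Polr1a (ENSMUSG00000049553, chromosome 6, 71909053 to 71984935, plus strand), the largest catalytic subunit, had 7.49, 10.5 and 9.04 FPKM in Vav knockouts at 4 weeks and 6.16, 6.17 and 6.15 FPKM in controls. The 8-week levels were 18.8, 12.7, 6.25 and 12.7 FPKM in transplanted, 17.2, 16.1 and 15.8 FPKM in untransplanted knockouts and 5.36, 6.35 and 6.07 FPKM in controls. Transplanted replicate 3 lay within the controls, the other knockouts above them. Mybbp1a (ENSMUSG00000040463, chromosome 11, 72441355 to 72451768, plus strand) encodes a nucleolar protein that binds the polymerase machinery, and its promoter holds a CACGTG printed above. It had 8.58, 12.6 and 9.58 FPKM in Vav knockouts at 4 weeks, against 6.51, 6.33 and 6.21 FPKM in controls, which did not overlap. In the 8-week table Mybbp1a had 24.6, 19.5, 5.63 and 14.6 FPKM in transplanted, 19.6, 19.5 and 20.8 FPKM in untransplanted knockouts and 5.54, 5.37 and 5.75 FPKM in controls. The log2 fold changes were 0.47 (SE 0.111, adjusted p = 0.0364) and 0.60 (SE 0.127, adjusted p = 0.0275) at 4 weeks for Polr1a and Mybbp1a, and 1.33 (SE 0.295, adjusted p = 0.0262) and 1.68 (SE 0.405, adjusted p = 0.0352) at 8 weeks. Polr1c, a subunit shared with RNA polymerase III, rose by less at 4 weeks (0.28), and Polr1e, an accessory subunit, gave 0.15.

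Of the 8 snoRNP genes 6 rose in Vav knockouts at 4 weeks, among them core proteins of both box classes, Fbl and Nop58 (box C/D) and Nhp2 and Gar1 (H/ACA), while the core proteins Nop56 and Dkc1 did not pass. Fbl (ENSMUSG00000046865, chromosome 7, 28169710 to 28179269, plus strand) encodes fibrillarin, the methyltransferase of box C/D particles. It had 52.4, 70.2 and 61.8 FPKM in Vav knockouts at 4 weeks, against 36.5, 40.6 and 42.4 FPKM in controls, a log2 fold change of 0.61 (SE 0.115, adjusted p = 0.0192). At 8 weeks it had 140.3, 119, 23.9 and 87.98 FPKM in transplanted, 96.3, 104 and 106 FPKM in untransplanted knockouts and 39.8, 35.7 and 35.8 FPKM in controls. The untransplanted knockouts and 3 of 4 transplanted libraries exceeded all controls, and replicate 3 lay below them. The Lck libraries overlapped, with 39.8, 31.8 and 40.4 FPKM in knockouts and 38.6, 30.4 and 36.7 FPKM in controls.

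Nhp2 (ENSMUSG00000001056, chromosome 11, 51619735 to 51623714, plus strand), a core protein of the H/ACA particles that guide pseudouridine formation, had the largest change of this role at 4 weeks, 0.71 (SE 0.0843, adjusted p = 0.00484). It had 16.6, 19.6 and 18.3 FPKM in Vav knockouts and 9.72, 11.3 and 11.2 FPKM in controls. Its values in the 8-week table were 37.4, 22.3, 6.099 and 23.8 FPKM in transplanted, 27.1, 28.2 and 31.2 FPKM in untransplanted knockouts and 10.9, 11.7 and 9.93 FPKM in controls. Its lowest library of that table was again transplanted replicate 3. Nop58 (ENSMUSG00000026020, chromosome 1, 59684971 to 59719044, plus strand), a scaffold of box C/D particles, had 6.62, 8.24 and 8.25 FPKM in Vav knockouts at 4 weeks and 4.69, 4.98 and 4.93 FPKM in controls, a change of 0.56 (SE 0.0889, adjusted p = 0.01097). In the 8-week table Nop58 had 13.96, 10.97, 3.403 and 9.796 FPKM in transplanted, 10.9, 10.4 and 11.9 FPKM in untransplanted knockouts and 4.12, 4.21 and 4.18 FPKM in controls, with transplanted replicate 3 below every control and the other knockouts above. The other calls of this role at 4 weeks were Nolc1 (0.52), Gar1 (0.50) and Rrp9 (0.33), in that order a snoRNP chaperone, an H/ACA protein and a protein of the U3 particle. Dkc1, the pseudouridine synthase, gave 0.41 (SE 0.111, adjusted p = 0.0563), and Nop56, the partner of Nop58, 0.23 (SE 0.0966, adjusted p = 0.173). Of the 43 genes Nop58, Nop56, Dkc1, Wdr43, Tsr1, Ppan, Ncl and Gnl3 hold snoRNA genes within them, and whether snoRNA reads were counted with them cannot be read from the tables.

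In the small subunit pathway the changes were uneven. Rrp12 (ENSMUSG00000035049, chromosome 19, 41862851 to 41896173, minus strand), known in yeast for the export of both subunits from the nucleus, had 4.04, 5.62 and 4.46 FPKM in Vav knockouts at 4 weeks, against 2.36, 2.53 and 2.38 FPKM in controls, a log2 fold change of 0.73 (SE 0.107, adjusted p = 0.00887). The 8-week levels were 12.95, 7.299, 1.34 and 6.99 FPKM in transplanted, 10.5, 10.1 and 9.07 FPKM in untransplanted knockouts and 2.12, 2.798 and 1.94 FPKM in controls. Transplanted replicate 3 was below every control and the other knockouts were above. Its change in untransplanted knockouts was 1.74 (SE 0.5201, adjusted p = 0.06698), and 1.74 (SE 0.212, adjusted p = 0.00118) without transplanted replicate 3 in the fit.

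Tsr1 (ENSMUSG00000038335, chromosome 11, 74898071 to 74909342, plus strand), a late factor of small subunit maturation, had 3.53, 4.91 and 3.95 FPKM in Vav knockouts at 4 weeks, against 2.42, 2.82 and 2.66 FPKM in controls, which did not overlap. In the 8-week table Tsr1 had 7.72, 6.43, 2.46 and 5.64 FPKM in transplanted, 6.03, 5.901 and 6.92 FPKM in untransplanted knockouts and 2.399, 1.83 and 2.38 FPKM in controls, and every knockout exceeded every control. In untransplanted knockouts it passed at both ages, with 0.49 (SE 0.1095, adjusted p = 0.0322) at 4 weeks and 1.19 (SE 0.294, adjusted p = 0.0385) at 8 weeks. Wdr43 (ENSMUSG00000041057, chromosome 17, 71615895 to 71659031, plus strand), a part of the early small subunit processome, was the most abundant gene of this role in controls. It had 22.1, 31.6 and 24.6 FPKM in Vav knockouts at 4 weeks and 17.6, 19.98 and 18.2 FPKM in controls, a change of 0.45 (SE 0.1299, adjusted p = 0.0669) that did not pass. At 8 weeks it had 58.6, 43.7, 21.4 and 35.8 FPKM in transplanted, 43.6, 43.6 and 45.2 FPKM in untransplanted knockouts and 18.3, 20.2 and 17.1 FPKM in controls, and its change in untransplanted knockouts, 1.21 (SE 0.292, adjusted p = 0.0347), did pass. Nat10 (ENSMUSG00000027185, chromosome 2, 103721256 to 103761270, minus strand), which acetylates the small subunit RNA, was low, with 1.36, 1.82 and 1.68 FPKM in Vav knockouts at 4 weeks and 0.876, 0.951 and 0.882 FPKM in controls, and gave 0.46 (SE 0.0935, adjusted p = 0.0247), with every control under the minimum of 1 FPKM. In the 8-week table Nat10 had 3.07, 2.98, 0.976 and 2.52 FPKM in transplanted, 2.77, 3.06 and 2.86 FPKM in untransplanted knockouts and 1.01, 1.18 and 0.976 FPKM in controls.

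Bysl, the counterpart of a yeast factor of late small subunit maturation, stood apart from this role. It had 9.95, 8.67 and 9.28 FPKM in Vav knockouts at 4 weeks and 8.53, 8.76 and 8.802 FPKM in controls, and in Lck knockouts 7.52, 6.81 and 7.24 FPKM, against 7.91, 7.98 and 8.21 FPKM in controls. The Lck groups did not overlap and the knockouts were the lower, with an estimate of -0.14 (SE 0.0502, adjusted p = 0.293) that did not pass. Its values in the 8-week table were 9.38, 9.23 and 9.97 FPKM in untransplanted knockouts and 7.94, 9.43 and 7.77 FPKM in controls, which overlapped. The processome genes Utp20, Heatr1, Nop14 and Noc4l passed in none of the 5 group comparisons with all libraries and had 4-week estimates of 0.50, 0.32, 0.10 and 0.24 in that order. In the 8-week fit without transplanted replicate 3 all 4 rose in untransplanted knockouts, by 1.24, 0.75, 0.58 and 0.58.

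Among the 15 large subunit genes Bop1, Pes1 and Wdr12 are known to form 1 complex, PeBoW, and their values differed. Bop1 (ENSMUSG00000022557, chromosome 15, 76452989 to 76477277, minus strand) is the 1 member on the chromosome of Myc. It had 38.5, 37.7 and 40.3 FPKM in Vav knockouts at 4 weeks, against 24.7, 28.2 and 28.1 FPKM in controls, a log2 fold change of 0.51 (SE 0.0674, adjusted p = 0.00629). The 8-week levels were 80.1, 59.6, 37.6 and 54.6 FPKM in transplanted, 65.4, 59.6 and 59.5 FPKM in untransplanted knockouts and 24.8, 29.1 and 27.6 FPKM in controls, and all knockouts, replicate 3 of the transplanted group included, exceeded all controls. In Lck knockouts it had 24.99, 26.9 and 22.4 FPKM, against 27.5, 23.6 and 26.2 FPKM in controls, and the groups overlapped. Genes of chromosome 15 as a whole were higher in the Vav knockouts. Relative to controls on the log2(FPKM + 1) scale their median was 0.30, 0.22 and 0.30 in Vav knockouts at 4 weeks, 0.038, 0.038 and 0.015 in Lck knockouts, 0.49, 0.55, 0.38 and 0.51 in transplanted and 0.65, 0.51 and 0.57 in untransplanted knockouts at 8 weeks. The part of the chromosome in the rise of Bop1 and Myc was not tested, and the other 42 genes lie on other chromosomes.

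Pes1 gave 0.27 (SE 0.07604, adjusted p = 0.0617) at 4 weeks and 0.77 (SE 0.281, adjusted p = 0.112) in untransplanted knockouts at 8 weeks, and did not pass with all libraries. Wdr12 had 5.93, 7.74 and 7.52 FPKM in Vav knockouts at 4 weeks and 5.57, 6.03 and 6.01 FPKM in controls. At 8 weeks it had 6.34, 3.94, 14.6 and 5.32 FPKM in transplanted, 7.37, 4.85 and 6.86 FPKM in untransplanted knockouts and 6.72, 6.23 and 6.05 FPKM in controls, with its highest value of all 22 libraries in transplanted replicate 3. The other Vav knockouts at 8 weeks overlapped the controls. Whether Bop1 and Wdr12 differed from each other was not tested.

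Ppan (ENSMUSG00000004100, chromosome 9, 20888175 to 20892178, plus strand), the counterpart of a yeast large subunit factor, had 5.83, 6.62 and 5.74 FPKM in Vav knockouts at 4 weeks, against 4.21, 4.45 and 4.22 FPKM in controls, a change of 0.42 (SE 0.06803, adjusted p = 0.0119). Its values in the 8-week table were 16.05, 13.2, 7.72 and 8.49 FPKM in transplanted, 9.76, 10.1 and 10.7 FPKM in untransplanted knockouts and 5.46, 5.58 and 4.74 FPKM in controls, and every knockout exceeded every control. Rrs1 (ENSMUSG00000061024, chromosome 1, 9545408 to 9547455, plus strand), needed to bring the 5S RNA particle into the large subunit, had 16.9, 15.5 and 14.8 FPKM in Vav knockouts at 4 weeks and 8.44, 9.53 and 9.97 FPKM in controls, with the largest change of this role, 0.70 (SE 0.0791, adjusted p = 0.00425). In the 8-week table Rrs1 had 47.8, 25.1, 8.58 and 19.7 FPKM in transplanted, 24.3, 24.2 and 21.7 FPKM in untransplanted knockouts and 9.07, 8.56 and 9.24 FPKM in controls, and transplanted replicate 3 alone of the knockouts fell within the control range. Ftsj3 (ENSMUSG00000020706, chromosome 11, 106249142 to 106256079, minus strand), a methyltransferase of the precursor RNA, did not pass at 4 weeks, where it gave 0.33 (SE 0.107, adjusted p = 0.0944) with 12.6, 16.7 and 14.8 FPKM in Vav knockouts and 10.7, 12.5 and 11.3 FPKM in controls. It rose at 8 weeks, with 23.9, 24.2, 15.1 and 19.7 FPKM in transplanted, 21.4, 22.8 and 22.2 FPKM in untransplanted knockouts and 12.97, 12.7 and 10.7 FPKM in controls. The other calls at 4 weeks were Grwd1 (0.56), Mrto4 (0.54) and Ebna1bp2 (0.31). Nop2, Nop16, Noc3l and Nip7 passed in none of the 5 group comparisons with all libraries and had 4-week estimates of 0.36, 0.33, 0.28 and 0.17 in that order.

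The nucleolar proteins include the most abundant genes of the list in controls, Npm1 and Ncl. Npm1 (ENSMUSG00000057113, chromosome 11, 33152287 to 33163206, minus strand), nucleophosmin, a chaperone of ribosomal proteins and histones, had 91.6, 123 and 100.2 FPKM in Vav knockouts at 4 weeks, against 64.5, 73.7 and 71.1 FPKM in controls, a log2 fold change of 0.57 (SE 0.118, adjusted p = 0.0251). The 8-week levels were 233, 149, 46.1 and 146 FPKM in transplanted, 163, 155 and 212 FPKM in untransplanted knockouts and 62.3, 59.2 and 50.2 FPKM in controls. All untransplanted knockouts were above all controls, and transplanted replicate 3 was below them. In Lck knockouts it had 78.6, 71.8 and 73.6 FPKM, against 62.4, 58.999 and 62.8 FPKM in controls, groups that did not overlap, with a change of 0.28 (SE 0.05003, adjusted p = 0.0806) that did not pass.

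Ddx21 (ENSMUSG00000020075, chromosome 10, 62580251 to 62602281, minus strand), an RNA helicase that links polymerase I transcription with RNA processing, had 40.5, 54.7 and 41.6 FPKM in Vav knockouts at 4 weeks and 30.2, 32.01 and 33.04 FPKM in controls, a change of 0.50 (SE 0.118, adjusted p = 0.0392). The 8-week levels of Ddx21 were 82.2, 62.3, 28.1 and 56.1 FPKM in transplanted, 67.4, 62.9 and 88.3 FPKM in untransplanted knockouts and 34.2, 31.3 and 31.5 FPKM in controls, with transplanted replicate 3 below every control. Ncl, nucleolin, gave 0.39 (SE 0.0782, adjusted p = 0.0228). Gnl3 (ENSMUSG00000042354, chromosome 14, 31012433 to 31019152, minus strand), nucleostemin, a GTPase of the nucleolus, had 23.3, 37.4 and 27.1 FPKM in Vav knockouts at 4 weeks and 16.5, 19.2 and 18.6 FPKM in controls; the groups did not overlap, but its estimate, 0.64 (SE 0.165, adjusted p = 0.0505), did not pass. At 8 weeks it had 83.9, 70.004, 22.9 and 50.05 FPKM in transplanted, 59.7, 59.98 and 56.6 FPKM in untransplanted knockouts and 22.4, 21.6 and 15.9 FPKM in controls, and its change in untransplanted knockouts, 1.52 (SE 0.397, adjusted p = 0.0447), passed.

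Both metabolic enzymes rose. Srm (ENSMUSG00000006442, chromosome 4, 148591503 to 148594993, plus strand) is spermidine synthase, which makes a polyamine needed by growing cells. It had 9.38, 13.9 and 11.9 FPKM in Vav knockouts at 4 weeks, against 4.06, 5.59 and 5.14 FPKM in controls, or 11.7 ± 2.25 and 4.93 ± 0.785 FPKM (SD, n = 3 each). Its values in the 8-week table were 37.1, 26.9, 2.24 and 22.6 FPKM in transplanted, 23.8, 24.2 and 22.2 FPKM in untransplanted knockouts and 4.75, 4.07 and 3.71 FPKM in controls. The untransplanted knockouts averaged 23.4 ± 1.04 FPKM, against 4.18 ± 0.527 FPKM in controls (SD, n = 3 each), and transplanted replicate 3 was the lowest library of the table. Its change in untransplanted knockouts was 2.24 (SE 0.754, adjusted p = 0.0905), and 2.24 (SE 0.166, adjusted p = 0.000246) without that library in the fit. In Lck knockouts Srm had 5.34, 5.38 and 5.13 FPKM, against 3.86, 3.66 and 4.13 FPKM in controls. The Lck groups did not overlap, and the change, 0.36 (SE 0.0567, adjusted p = 0.0536), was the largest of the 43 in that table and just missed the threshold.

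Cad (ENSMUSG00000013629, chromosome 5, 31054780 to 31078479, plus strand), the enzyme that starts pyrimidine synthesis, had 2.58, 4.05 and 3.18 FPKM in Vav knockouts at 4 weeks, against 1.68, 1.59 and 1.72 FPKM in controls, a change of 0.67 (SE 0.128, adjusted p = 0.0196). The 8-week levels were 7.23, 5.76, 0.725 and 4.56 FPKM in transplanted, 6.08, 5.95 and 5.73 FPKM in untransplanted knockouts and 1.26, 1.1995 and 1.202 FPKM in controls. The 3 untransplanted knockouts and transplanted replicates 1, 2 and 4 were above all controls, and replicate 3 was below.

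**Figure D3:**
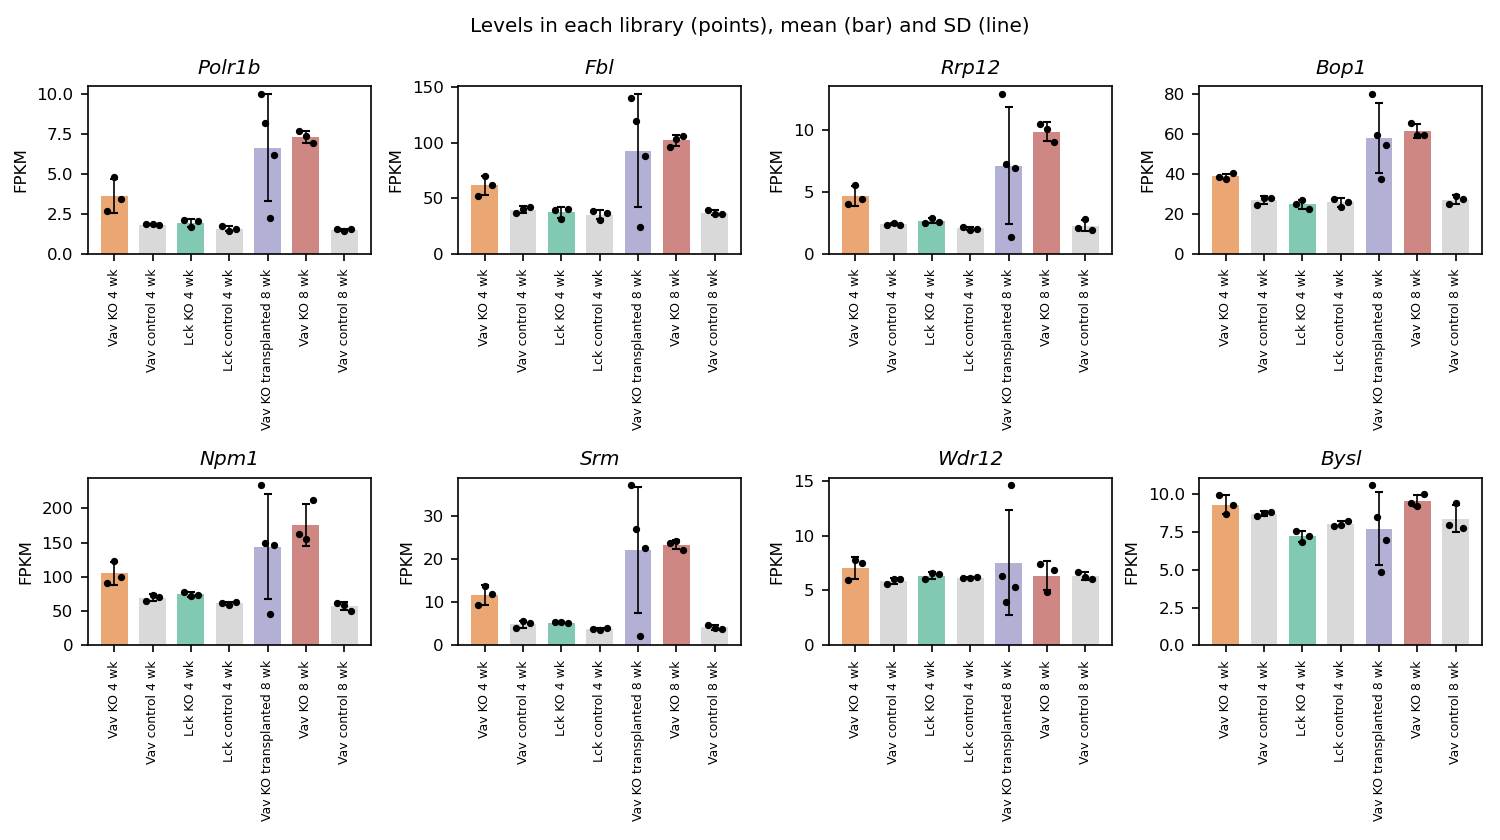
FPKM of 8 of the genes in each library (points), with the group mean (bar) and SD (line) over 3 libraries, 4 in the transplanted group; groups of different tables were normalised separately. Polr1b, Fbl, Rrp12, Bop1, Npm1 and Srm are higher in Vav knockouts than in their controls at both ages, while Wdr12 and Bysl overlap their controls at 8 weeks. The lowest transplanted point is replicate 3 in every panel but that of Wdr12, where it is the highest.

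The order of the changes among the 43 genes was similar at both ages. The 4-week and 8-week Vav comparisons share no library, and over the 43 genes their log2 fold changes had a Pearson r of 0.912 and a Spearman rho of 0.912. The transplanted comparison without replicate 3 and the 4-week one gave an r of 0.891. The small Lck changes, from other libraries again, gave an r of 0.698 against the 4-week and 0.714 against the 8-week Vav changes. These are descriptions across genes, which are not independent replicates, and the level of a gene enters the pseudocount in every comparison alike. The same r was not taken over all genes, so it does not set the 43 apart. Called in 3 of the 5 group comparisons were 2 genes, in 2 comparisons 5, in 1 comparison 23 and in 0 comparisons 13.

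Myc itself, on chromosome 15, differed between the groups in the same order as the 43 genes. It had 3.56, 6.49 and 4.34 FPKM in Vav knockouts at 4 weeks, against 0.957, 1.09 and 0.937 FPKM in controls, a log2 fold change of 1.51 (SE 0.177, adjusted p = 0.00468). At 8 weeks it had 23.002, 21.3, 1.47 and 9.34 FPKM in transplanted, 16.5, 13.7 and 15.8 FPKM in untransplanted knockouts and 0.945, 0.734 and 0.787 FPKM in controls. Transplanted replicate 3, the library with the lowest median of the 43 genes among the knockouts of that table, also had the lowest Myc of those knockouts, above all 3 controls. The change of Myc was 3.16 (SE 0.713, adjusted p = 0.0277) in untransplanted and 2.57 (SE 0.667, adjusted p = 0.0436) in transplanted knockouts.

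The median of the 43 genes per library was set beside Myc on the same scale, log2(FPKM + 1) minus the control mean of the table. In Vav knockouts at 4 weeks the medians were 0.26, 0.58 and 0.39 and Myc 1.19, 1.91 and 1.42, so the library with the most Myc, replicate 2, also had the highest median. In Lck knockouts the medians were 0.12, 0.11 and 0.11 and Myc 0.56, 0.27 and 0.23. At 8 weeks the transplanted libraries had medians of 1.43, 0.99, -0.056 and 0.92 with Myc at 3.72, 3.62, 0.44 and 2.51, and the untransplanted ones 1.01, 0.98 and 1.01 with Myc at 3.27, 3.02 and 3.21. The libraries of the 8-week table formed separate sets on both measures, so no r is given over them.

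Within groups, as deviations of each library from its group mean, the Pearson r over the 22 libraries was 0.966 and the Spearman rho 0.663. Transplanted replicate 3 lay farthest out on both measures. Without it r was 0.824 and rho 0.575 over 21 libraries, and without the 2 libraries then farthest from the median of Myc, transplanted replicates 4 and 1, r was 0.653 over 19. For the genes one by one r was above 0 in 42 of 43, with a median of 0.92, and without transplanted replicate 3 in 43 of 43, with a median of 0.64. Srm, for example, had 0.95 with and 0.70 without that library, Polr1b 0.97 and 0.86, and Wdr12 -0.75 and 0.20. Each library contributes both values from the same reads and scaling, so these are descriptions with no p. The r with Myc was not taken over all genes, so the counts and medians of r do not set the 43 apart. The 7 genes with CACGTG in the printed windows had a median change of 0.49 at 4 weeks and 1.19 at 8 weeks in Vav knockouts, and the 29 matched genes without it 0.39 and 0.84. Calls did not follow the medians in each comparison: at 4 weeks 3 of the 7 and 15 of the 29 rose, and at 8 weeks 0 of 7 and 4 of 29 in transplanted and 3 of 7 and 5 of 29 in untransplanted knockouts. The genes without a matched window are in neither set. They include Srm, Rrp12 and Rrs1, which had the largest changes of their roles in Vav knockouts at 4 weeks, and Gnl2, which did not pass there. This split was not tested.

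**Figure D4:**
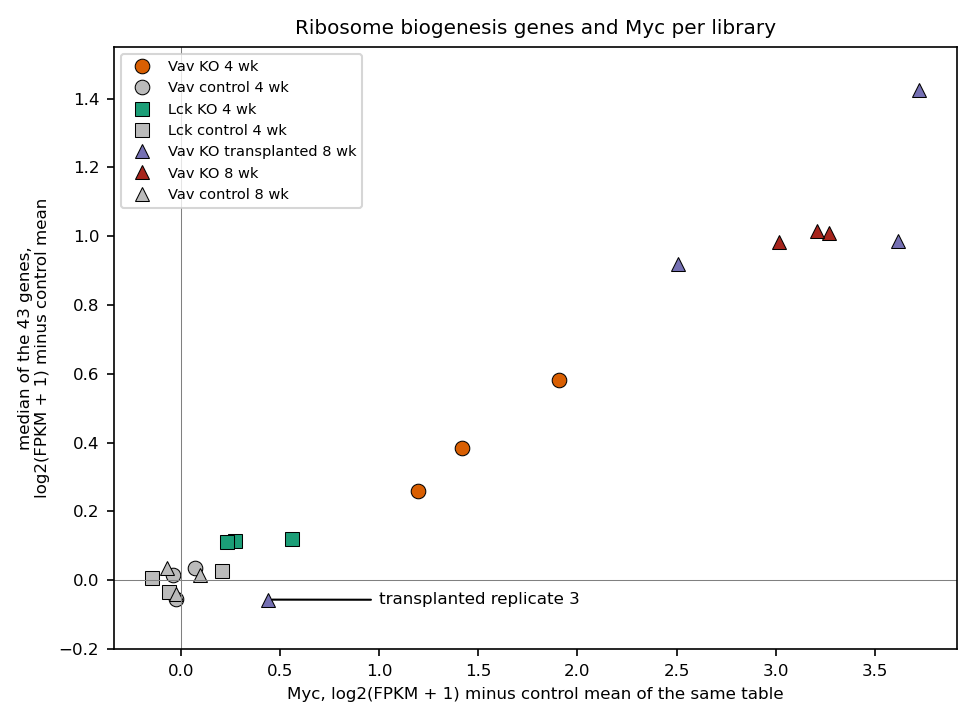
Each point is 1 library; the x axis is Myc and the y axis the median of the 43 genes, both as log2(FPKM + 1) minus the control mean of the same table. Controls lie near 0 on both axes, Lck knockouts at medians of 0.11 to 0.12, Vav knockouts at 4 weeks between 0.26 and 0.58 and at 8 weeks near 1. Transplanted replicate 3 lies apart from the other transplanted libraries, with Myc at 0.44, above every control, and a median of -0.056, below the controls of its table.

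The wider ribosome biogenesis machinery was compared through a second list of 113 genes of the same pathway, of which 111 were matched and 110 tested at 4 weeks in the Vav table. In Vav knockouts at 4 weeks 18 rose and 0 fell (16.4% of the list, against 7.63% of all tested genes), with a median of 0.16 (all genes -0.0083). The largest rises were Snu13 (0.82), Pno1 (0.58) and Rrp15 (0.53), which act in box C/D particles, the small subunit and the large subunit in that order. Of the 18, Shq1 had every control under the minimum. In Lck knockouts 0 of 109 passed in either direction by limma (0.201% and 0.804% of all genes; median 0.050). At 8 weeks 18 rose and 0 fell in untransplanted knockouts (16.4%, against 4.65% of all genes; median 0.42), led by Rcl1 (1.43), Brix1 (1.19) and Pwp2 (1.13), and 11 rose and 0 fell in transplanted knockouts (10%, against 4.59% of all genes; median 0.30), led by Nle1 (1.03), Brix1 (0.97) and Rrp7a (0.88). Without transplanted replicate 3, 63 rose and 1 fell in untransplanted knockouts and 63 rose and 1 fell in transplanted ones, against 16.4% and 18.1% of all genes that rose. The Vav effect exceeded the Lck effect for 5 of 109, or 4.59%, against 1.65% of all genes (Snu13 at 0.75, Brix1 at 0.45 and Rrp7a at 0.41 leading, all 3 on chromosome 15), and the 8-week Vav effect exceeded the 4-week one for 37 of 110, or 33.6%, against 8.87% of all genes, led by Rcl1 (0.98), Cd3eap (0.89) and Rpf2 (0.74). The medians of this list were lower than those of the 43 genes in all 4 comparisons with controls; that difference was not tested, and the 43 were proposed with earlier results of these data in view.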

How the data were processed

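Total RNA was isolated with RNeasy mini kits and libraries with a Nugen Ovation Ultralow kit, as the labels' protocols state. In 3 deposited tables, 1 for each set of libraries, the authors gave FPKM per gene. Trimmomatic 0.33, STAR, HTSeq 0.6.1, DESeq2 and the build mm10 are named, per the submitters' processing notes. The gene lengths behind the FPKM and the strand used in counting are not given in the sources used here, and exons of 21 of the 43 genes overlap another gene, 18 on the opposite strand. Tables were treated as separately normalized and tested within a table or as a difference of effects.

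The tables held 43430 genes, 42546 matched to a symbol of GENCODE M21, whose mm10 coordinates are printed. All columns of sample values were used (0 left out), and 0 pairs of libraries were identical. Read totals were inferred from the steps of the low values, and 50.64% to 59.44% of these were whole within 0.03 of a read, too few to recover counts. The tables hold no read counts, so precision rests on the spread between libraries.

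Values were tested as log2(FPKM + 1), which understates changes of low genes, with limma 3.58.1 (trend) in R 4.3.3, for genes reaching 1 FPKM in 3 or more libraries of every table fitted. P-values were adjusted over all tested genes by Benjamini-Hochberg and called under 0.05. The 8-week comparisons used 1 fit of 10 libraries. The members and lists were chosen with earlier results of these data known. Given in full are, per role, the members called in the most group comparisons and the most abundant one. Replicate numbers did not pair the samples (correlations of deviations from -0.109 to 0.181). Alternatives were other pseudocounts, filters, scalings, variances, a replicate block, fits of 2 groups and leaving out each library; the fits of untransplanted knockouts and of the other lists without transplanted replicate 3 were chosen after seeing the data.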

Additional observations from a re-analysis of the deposited data

Results flagged for a closer look

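The effect of the Vav knockout at 4 weeks differed from that of the Lck knockout for 3 of the 43 genes by the interaction test (limma, adjusted p under 0.05), with differences of 0.57 for Bop1, 0.43 for Mrto4 and 0.57 for Rrs1 on the log2 scale. All 3 Vav knockouts exceeded all their controls for each of the 3 genes.

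The Vav effect at 8 weeks differed from that at 4 weeks for 31 of the 43 genes by the same kind of test, always with the larger effect at 8 weeks. Of the RNA polymerase I genes, Mybbp1a differed by 1.08, Polr1a by 0.85 and Polr1b by 1.04. Among snoRNP genes the differences were Dkc1 (0.78), Fbl (0.83), Gar1 (0.46), Nhp2 (0.63), Nolc1 (0.69), Nop58 (0.66) and Rrp9 (0.38). Small subunit genes gave Nat10 (0.47), Nop14 (0.48), Rrp12 (1.01), Tsr1 (0.70) and Wdr43 (0.76). Large subunit genes gave Bop1 (0.64), Ebna1bp2 (0.34), Ftsj3 (0.49), Mrto4 (0.38), Noc3l (0.57), Nop2 (0.66), Pes1 (0.49), Ppan (0.42), Rrp1b (0.92) and Rrs1 (0.60). The nucleolar proteins gave Ddx21 (0.64), Gnl3 (0.89), Ncl (0.51) and Npm1 (1.02), and the enzymes Cad and Srm gave 0.97 and 1.14. Nat10 at both ages and Rrp1b at 8 weeks passed the minimum only through knockouts.

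Transplanted replicate 3 was the library farthest from its group in 39 of the 43 genes, but in 0 of them did its distance exceed Dixon's critical value for 4 samples. The same count was not taken over all genes, so it does not set the 43 apart.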

How the results depend on the processing

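No member fell in any of the 7 comparisons under any alternative run (0 calls each), and 0 of 1240 values of single genes reversed, while 286 no longer passed. Members rising at 4 weeks in Vav knockouts numbered 24, 14 without a filter on low values and 10 to 32 when 1 library was left out. In untransplanted knockouts at 8 weeks 10 rose, against 3 without a filter, 41 with array weights, 41 with only the 2 groups in the fit and 0 to 39 when 1 library was left out. Calls over all genes also shift with the setting, for example from 4.65% to 16.4% higher without transplanted replicate 3. Beyond that fit and scaling to the same sum they are not given, so the other counts of members have no background beside them. In transplanted knockouts 5 rose, against 9 with libraries scaled to the same sum, 39 with array weights (median 0.953 in place of 0.73), 0 with 2 groups and 0 to 40 when 1 library was left out, where the median ran from 0.558 to 1.08. With that scaling the calls over all genes in transplanted knockouts were 453 higher and 558 lower, against 534 and 535. The Vav minus Lck effect gave 3, against 1 without a filter, 5 with median-of-ratios scaling, 9 with array weights and 0 to 10 when 1 library was left out. The median of transplanted against untransplanted knockouts was -0.25 and reversed to 0.027 without transplanted replicate 3; when 1 library was left out it ran from -0.439 to 0.027. The r between Myc and the genes was 0.966, and 0.878 without the 2 farthest libraries. Both values use group means that include transplanted replicate 3. With the means taken without it r was 0.824, and 0.653 without the 2 libraries then farthest. With the replicate number as a replicate block the counts were 19 (Vav, 4 weeks), 0 (Lck), 1 (untransplanted), 0 (transplanted), 0 (transplanted against untransplanted), 1 (Vav minus Lck) and 25 (8 against 4 weeks). Fewer libraries, or fewer degrees of freedom, enter the fits that leave a library out or add the block; the cause of the other shifts was not tested. Scaling to the same sum gave a median of all genes of -0.12 in untransplanted knockouts at 8 weeks, against -0.0049 as reported. No read totals were given, so small changes of low genes such as Nat10 could not be weighed against counting error.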
